A study of Homo sapiens with 9 samples.

Results

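The 9 enzymes that carry squalene to cholesterol, SQLE, LSS, CYP51A1, MSMO1, NSDHL, HSD17B7, EBP, SC5D and DHCR7, were taken from the deposited gene table by an exact match of the gene symbol. All 9 were among the 20379 listed genes, and all 9 passed the filter on low counts that left 12657 genes for testing. Their mRNAs were followed step by step in HCCLM3, an established human hepatocellular carcinoma cell line, in 3 groups of 3 poly(A) RNA-seq libraries. The first group received siRNA against UXS1, the gene of UDP-glucuronate decarboxylase, which makes UDP-xylose. The second received siRNA against MRPL42, the gene of a protein of the mitochondrial ribosome. The remaining group received a non-targeting siRNA and served as control for both. The labels name 1 cell line and no dose or time after transfection. Separate cultures are not named for the libraries within a group, and the spread behind each p-value may therefore be technical.

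Cholesterol synthesis has an early arm, in which acetyl groups become mevalonate and then squalene, and a late arm, in which squalene is oxidised, closed into a sterol and trimmed. The late arm runs in the membrane of the endoplasmic reticulum, and the liver is a main site of the pathway in the body. Genes of both arms are known targets of the sterol regulatory element-binding proteins, transcription factors that leave the endoplasmic reticulum for the nucleus when membrane sterol is low.

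The siRNA targets gave a weak check of the MRPL42 label and no clear check of the UXS1 label. UXS1 mRNA had 145, 138 and 141 CPM (counts scaled to a common library total adjusted by TMM) in UXS1 siRNA libraries a, b and c, against 144, 151 and 180 CPM in control libraries a, b and c. MRPL42 mRNA had 104, 93.0 and 81.8 CPM in MRPL42 siRNA libraries, against 100.4, 118 and 147 CPM in control libraries. Both sets overlapped with the controls, and neither target passed the edgeR quasi-likelihood test, with log2 fold changes of −0.17 ± 0.087 (SE, adjusted p = 0.348) for UXS1 and −0.39 ± 0.14 (SE, adjusted p = 0.185) for MRPL42. Without control library c, described next, both were nearer to 0, at −0.078 ± 0.059 (SE, edgeR adjusted p = 0.519) for UXS1 and −0.24 ± 0.11 (SE, adjusted p = 0.252) for MRPL42. The groups below are therefore named by the siRNA on the label. The 9 libraries held between 15265959 and 22400560 estimated counts. Control library c stood apart, with Pearson's r of 0.956 to 0.967 across genes to the other 8 libraries, against values up to 0.995 among those 8. Its 8 hepatocyte markers summed to 21.3 CPM per annotated kilobase of transcript, against 34.8 and 34.5 in the other controls and 32.0 to 37.9 in the libraries with a targeting siRNA; the part of this in any result was not tested. The markers in it did not move together, since FGB had 0.806 CPM per kilobase in control c, against 17.3 and 17.1 in the other controls, while HNF4A had 17.2, against 8.93 and 8.84. Among these markers APOA1, APOA2 and TTR were near 0, with at most 10 counts in a library, so several genes that define mature hepatocytes were barely present in the line. The 8 markers of other cell types summed to 15.8 to 20.4 CPM per kilobase over all libraries, with COL1A1, VWF, PTPRC and CD14 at no more than 15 counts in any library. Most of that sum came from DCN (8.30 to 11.7 CPM per kilobase), PECAM1 (2.82 to 5.65) and LYZ (0.797 to 5.09). These 3 reached 472, 746 and 147 counts in a library, so markers of other cells were not absent as a set. Because control library c touches every comparison with the control, values without it are given beside those with all libraries.

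As a whole the arm took a larger share of the counts in both targeting groups. The 9 mRNAs together made up 0.160%, 0.158% and 0.159% of all counts in UXS1 siRNA libraries and 0.159%, 0.161% and 0.156% in MRPL42 siRNA libraries, against 0.128%, 0.131% and 0.133% in control libraries. No library of either targeting siRNA overlapped with a control. The change was uneven along the pathway. LSS, NSDHL, HSD17B7, EBP and DHCR7, 5 of the 9, had all UXS1 siRNA and all MRPL42 siRNA libraries above all 3 controls. The other 4, SQLE, CYP51A1, MSMO1 and SC5D, overlapped with the controls in both comparisons. Of all tested genes, 15.3% lay above the controls in this way under UXS1 siRNA, 11.0% under MRPL42 siRNA and 8.11% under both at once.

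With all 9 libraries, 0 of the 9 enzymes passed edgeR at an adjusted p below 0.05 under UXS1 siRNA, where 0.0158% of all tested genes were called, and 0 of 9 under MRPL42 siRNA, where the share over all genes was 0%. The same 5 enzymes had an unadjusted edgeR p below 0.05 in each comparison. So did 17.8% of all tested genes (2249) under UXS1 siRNA and 20.2% (2561) under MRPL42 siRNA. When both targeting groups were averaged and set against the control, 1 enzyme rose, HSD17B7, where 0.174% of all genes were called. This average uses the same 3 controls as the single comparisons and is no separate evidence. Without control library c, 4 enzymes rose under UXS1 siRNA (MSMO1, NSDHL, HSD17B7 and DHCR7) against 1.58% of all genes called. Also without it, 5 rose under MRPL42 siRNA (LSS, NSDHL, HSD17B7, EBP and DHCR7) against 1.33%, and 6 rose in the average of both, the same 5 and MSMO1, against 2.79%. DESeq2 on all libraries called 5 enzymes in each of these 3 comparisons, against 4.03%, 6.06% and 9.46% of the genes to which it gave an adjusted p. Limma-voom called 0 in each, against 0.0158%, 0% and 0.0553%. The number of calls therefore depended on the tool and on the libraries and groups fitted. With all libraries the log2 fold changes lay above 0 for all 9 enzymes under UXS1 siRNA, beside 49% of all tested genes. Under MRPL42 siRNA they did so for 8 of 9, beside 47.9%, and the 8 include MSMO1 at 0.0046 ± 0.15 (SE). Both counts rest on the same 3 controls. The median over the 9 was 0.28 under UXS1 siRNA and 0.33 under MRPL42 siRNA, beside medians of −0.0047 and −0.011 over all tested genes. Without control library c the medians over the enzymes were 0.30 and 0.36.

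**Figure D1:**
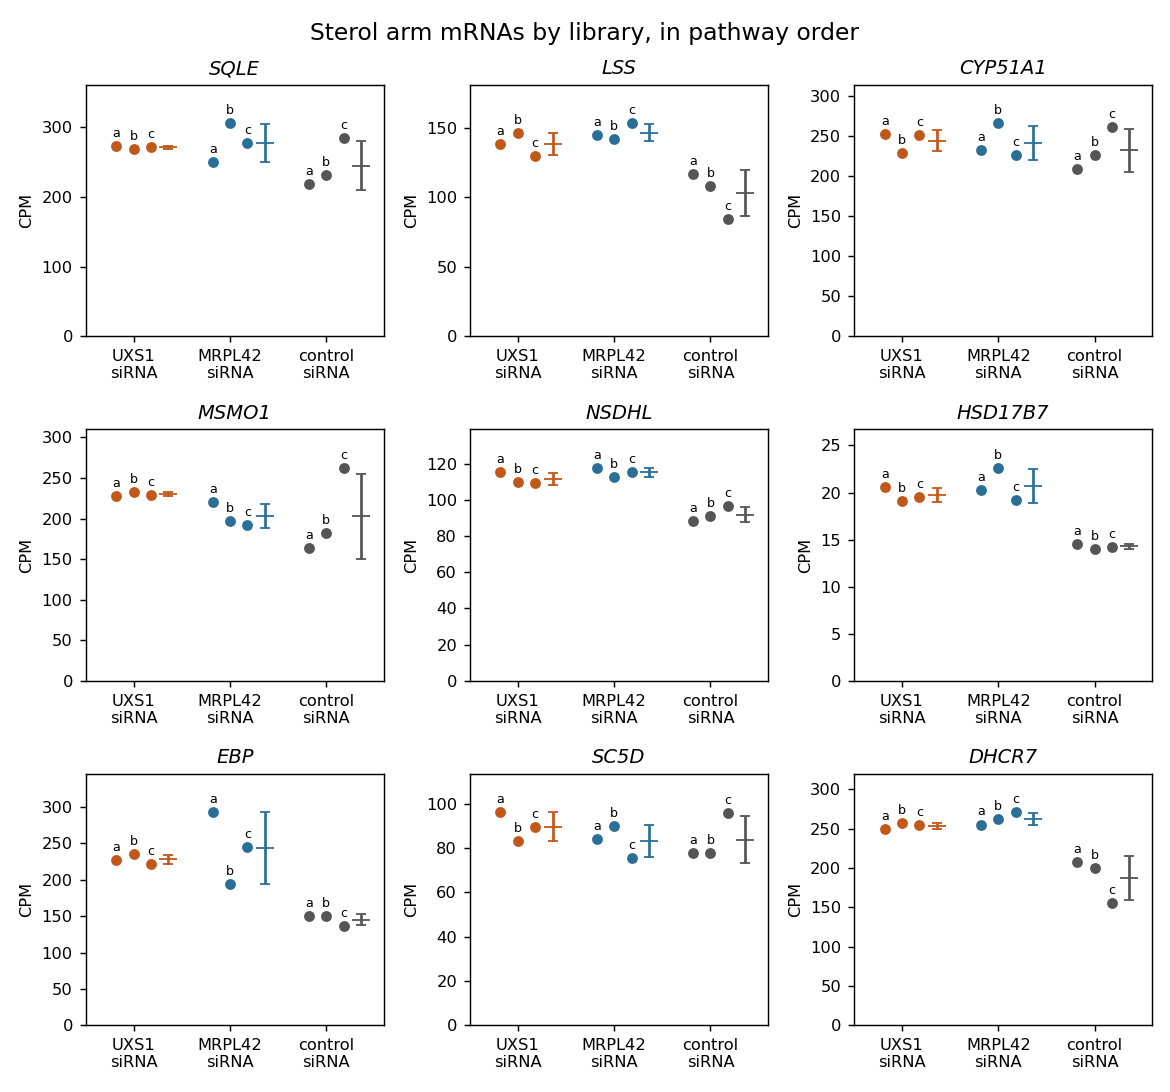
Level of each of the 9 enzyme mRNAs in CPM (vertical axes, from 0) in every library, in pathway order, for UXS1 siRNA, MRPL42 siRNA and control siRNA; letters name the libraries, and the bar beside each group is its mean ± SD. For LSS, NSDHL, HSD17B7, EBP and DHCR7 every control point lies under every other point, whereas control library c reaches or passes the other groups for SQLE, CYP51A1, MSMO1 and SC5D.

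The members also share letters in front of their start sites. RefSeq gives promoters for 8 of the 9 in GRCh38.p14, all but SQLE, with 10 start sites in all, and the 250 bases before each start were searched on both strands. The sterol regulatory element spelled TCACNCCAC was found in 0 of the 10 windows and in 0.883% of the 35116 promoters of the table. Allowing 1 mismatch it was found in 4 of the 10, those of MSMO1, HSD17B7, SC5D and DHCR7, and in 20.9% of all promoters. The CCAAT box bound by NF-Y was found in 8 of the 10 windows and in 7 of the 8 genes, all but CYP51A1, against 32.0% of all promoters. The GC box GGGCGG bound by Sp1 was found in 8 windows and in 7 of the 8 genes, all but NSDHL, against 42.6%. A match describes letters and is no evidence of binding. Promoters of 3 enzymes from the set whose groups did not overlap, and of 2 whose groups did, are shown 5′ to 3′ on the gene's strand, with the CCAAT box, the GC box and the sterol element with up to 1 mismatch in capitals, whichever strand they lie on. Starts are those of RefSeq. In GENCODE 29 the gene span begins inside or before these windows for EBP, NSDHL, MSMO1 and CYP51A1.

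HSD17B7 promoter, chr1:162790452-162790701, plus strand: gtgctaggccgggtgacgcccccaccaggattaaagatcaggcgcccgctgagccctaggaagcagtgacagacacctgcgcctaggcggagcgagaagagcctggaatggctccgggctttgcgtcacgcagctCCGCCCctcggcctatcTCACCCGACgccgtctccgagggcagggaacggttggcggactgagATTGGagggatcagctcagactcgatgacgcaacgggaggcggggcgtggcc
EBP promoter, chrX:48521558-48521807, plus strand: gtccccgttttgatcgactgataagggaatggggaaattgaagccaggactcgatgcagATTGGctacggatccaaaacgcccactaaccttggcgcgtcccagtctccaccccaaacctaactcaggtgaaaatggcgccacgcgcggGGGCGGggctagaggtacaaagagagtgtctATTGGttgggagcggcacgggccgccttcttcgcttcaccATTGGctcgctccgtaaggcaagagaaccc
NSDHL promoter, chrX:152830813-152831062, plus strand: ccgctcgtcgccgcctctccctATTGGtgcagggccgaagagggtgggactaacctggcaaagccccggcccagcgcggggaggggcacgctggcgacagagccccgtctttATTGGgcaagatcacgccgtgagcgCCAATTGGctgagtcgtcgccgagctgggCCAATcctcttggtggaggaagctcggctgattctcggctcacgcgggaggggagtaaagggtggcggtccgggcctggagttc
MSMO1 promoter, chr4:165327419-165327668, plus strand: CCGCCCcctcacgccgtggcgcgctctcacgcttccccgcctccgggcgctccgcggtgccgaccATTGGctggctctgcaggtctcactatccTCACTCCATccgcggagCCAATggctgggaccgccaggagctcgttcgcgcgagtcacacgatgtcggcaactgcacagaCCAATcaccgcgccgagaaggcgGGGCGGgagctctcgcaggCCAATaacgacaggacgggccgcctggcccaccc
CYP51A1 promoter, chr7:92134478-92134727, minus strand: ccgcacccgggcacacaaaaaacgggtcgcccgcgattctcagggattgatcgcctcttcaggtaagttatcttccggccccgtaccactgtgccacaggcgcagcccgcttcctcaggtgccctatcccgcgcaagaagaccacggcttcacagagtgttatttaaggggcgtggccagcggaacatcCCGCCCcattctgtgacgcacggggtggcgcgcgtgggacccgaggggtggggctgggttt

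The HSD17B7 window holds 1 match of each kind. The EBP window holds 3 CCAAT matches and the NSDHL window 5, of which 2 lie on opposite strands and overlap. MSMO1 has 4 CCAAT matches, 2 GC boxes and the element with 1 mismatch, yet it was among the enzymes whose groups overlapped, while the CYP51A1 window holds a single GC box. The promoter letters searched did not sort the enzymes into those that overlapped with the controls and those that did not.

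The arm opens with SQLE, squalene monooxygenase, which oxidises squalene and is a known control point of the pathway (gene ENSG00000104549, chromosome 8). SQLE had 274, 269 and 271 CPM in UXS1 siRNA libraries and 250.1, 306 and 277 CPM in MRPL42 siRNA libraries, against 218, 232 and 284 CPM in control libraries. All 6 targeting libraries lay above controls a and b, but control c lay above every UXS1 siRNA library. The log2 fold change was 0.15 ± 0.11 (SE, edgeR adjusted p = 0.490) under UXS1 siRNA and 0.18 ± 0.11 (SE, adjusted p = 0.350) under MRPL42 siRNA. Without control library c it was 0.26 ± 0.078 (adjusted p = 0.135) and 0.30 ± 0.078 (adjusted p = 0.0943).

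LSS, lanosterol synthase, closes the oxidised chain into lanosterol, the first sterol of the pathway (ENSG00000160285; GRCh38 chr21:46188141-46228824, minus strand). LSS had 139, 146 and 130.1 CPM in UXS1 siRNA libraries and 145, 142 and 153 CPM in MRPL42 siRNA libraries, against 117, 108 and 84.7 CPM in control libraries. Here control c was the lowest of all 9 libraries, and the groups did not overlap with or without it. LSS had a log2 fold change of 0.42 ± 0.11 (SE, edgeR adjusted p = 0.174) under UXS1 siRNA and 0.51 ± 0.11 (SE, adjusted p = 0.135) under MRPL42 siRNA. Leaving out control c made it smaller, 0.29 ± 0.068 (adjusted p = 0.0707) and 0.38 ± 0.068 (adjusted p = 0.0277), and the second of these passed the threshold.

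Removal of the extra methyl groups of lanosterol begins with CYP51A1, a cytochrome P450 (ENSG00000001630; chr7:92112151-92134803, minus strand). CYP51A1 had 252, 229 and 251 CPM in UXS1 siRNA libraries and 233, 266 and 226 CPM in MRPL42 siRNA libraries, against 209, 227 and 261 CPM in control libraries. The 3 groups overlapped throughout, with log2 fold changes of 0.073 ± 0.097 (SE, edgeR adjusted p = 0.720) under UXS1 siRNA and 0.057 ± 0.097 (adjusted p = 0.754) under MRPL42 siRNA. Without control c they were 0.15 ± 0.081 (SE, edgeR adjusted p = 0.338) and 0.14 ± 0.081 (adjusted p = 0.359), larger and still not past the threshold. Its counts are less certain than most. Of the exon bases of CYP51A1, 79.35% are shared with AC000120.2, another protein-coding entry of the table on the same strand. The CYP51A1 counts had decimals in all 9 libraries. The genome also holds the pseudogenes CYP51A1P1, CYP51A1P2 and CYP51A1P3, which are not in the table, so reads could have been shared with them.

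MSMO1, NSDHL and HSD17B7 work in turn to strip the remaining methyl pair: MSMO1 oxidises the methyl group, NSDHL removes it as carbon dioxide, and HSD17B7 reduces the ketone that is left. MSMO1 (ENSG00000052802; chr4:165327623-165343160, plus strand) had 228, 233 and 230 CPM in UXS1 siRNA libraries and 221, 197 and 192 CPM in MRPL42 siRNA libraries, against 164, 182 and 263 CPM in control libraries. It was the enzyme on which control library c weighed most, since c exceeded the mean of controls a and b by 0.61 on the log2 scale while all 6 targeting libraries lay below c and above a and b. With all libraries the log2 fold change was 0.18 ± 0.15 (SE, edgeR adjusted p = 0.549) under UXS1 siRNA and 0.0046 ± 0.15 (adjusted p = 0.991) under MRPL42 siRNA. Without control c it was 0.40 ± 0.073 (adjusted p = 0.0227) under UXS1 siRNA, past the threshold, and 0.23 ± 0.073 (adjusted p = 0.127) under MRPL42 siRNA. The direction under MRPL42 siRNA was not settled, because it turned to −0.026 with offsets for transcript length and to −0.13 without control library a.

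NSDHL (ENSG00000147383; chrX:152830967-152869729, plus strand) was among the steadiest of the 9. It had 115, 109.9 and 109.5 CPM in UXS1 siRNA libraries and 118, 113 and 115 CPM in MRPL42 siRNA libraries, against 88.2, 91.0 and 96.5 CPM in control libraries. No library of either targeting siRNA fell within the controls, and the replicates of each group spanned a narrow range. The log2 fold change was 0.28 ± 0.059 (SE, edgeR adjusted p = 0.159) under UXS1 siRNA, 0.33 ± 0.059 (adjusted p = 0.132) under MRPL42 siRNA and 0.30 ± 0.052 (adjusted p = 0.0589) for both together. Without control c it was 0.30 ± 0.054 (adjusted p = 0.0201) under UXS1 siRNA and 0.36 ± 0.054 (adjusted p = 0.0131) under MRPL42 siRNA, and NSDHL passed in both.

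HSD17B7 (ENSG00000132196; chr1:162790702-162812817, plus strand) had the lowest counts of the arm and the tightest controls. It had 20.6, 19.1 and 19.6 CPM in UXS1 siRNA libraries and 20.3, 22.6 and 19.2 CPM in MRPL42 siRNA libraries, against 14.5, 14.02 and 14.3 CPM in control libraries. Control library c lay between a and b here, and the gap to the nearest targeting library was wider than the spread of any group. The log2 fold change was 0.47 ± 0.085 (SE, edgeR adjusted p = 0.132) under UXS1 siRNA and 0.53 ± 0.085 (adjusted p = 0.126) under MRPL42 siRNA. For both together it was 0.50 ± 0.074, a 1.41-fold rise, with an adjusted p of 0.0477. Without control c it was 0.45 (adjusted p = 0.0414) under UXS1 siRNA and 0.53 (adjusted p = 0.0266) under MRPL42 siRNA. HSD17B7 has a principal transcript of 1190 bases, the shortest of the 9, and transcript length moved with the groups. A doubling of transcript length went with a shift in log2 CPM of −0.10 to 0.042 over the 6 targeting libraries, against 0.048 to 0.13 over the controls. With offsets that remove this trend the log2 fold change of HSD17B7 for both together was 0.28 (adjusted p = 0.225), and the call was lost. The call was also lost with DESeq2 size factors (adjusted p = 0.0527), with limma-voom (adjusted p = 0.0530) and, at adjusted p of 0.101 to 0.174, when any library other than control c or MRPL42 siRNA library b was left out of edgeR. The genome holds 2 HSD17B7 pseudogenes, HSD17B7P1 and HSD17B7P2, that are not in the table, so reads could have been shared with them.

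EBP, the sterol isomerase that moves a ring double bond, showed the largest log2 fold change of the 9 in each comparison with the control (ENSG00000147155; chrX:48521158-48528716, plus strand). It had 227, 235 and 222 CPM in UXS1 siRNA libraries and 293, 194 and 245 CPM in MRPL42 siRNA libraries, against 150.0, 150.0 and 136 CPM in control libraries. The MRPL42 siRNA libraries were widely spread and library b was their lowest, yet every one of them lay above every control. Its log2 fold change was 0.65 ± 0.13 (SE, edgeR adjusted p = 0.145) under UXS1 siRNA, 0.75 ± 0.13 (adjusted p = 0.132) under MRPL42 siRNA and 0.70 ± 0.11 (adjusted p = 0.0581) for both together. Without control c it was 0.59 ± 0.13 (adjusted p = 0.0576) under UXS1 siRNA and 0.70 ± 0.13 (adjusted p = 0.0339) under MRPL42 siRNA. With the length offsets the value for both together was 0.61 and passed, with an adjusted p of 0.0478. EBP counts had decimals in all 9 libraries.

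SC5D, sterol desaturase, introduces the ring double bond that the last reductase needs in place (ENSG00000109929; chr11:121292453-121308694, plus strand). It had 96.1, 83.2 and 89.6 CPM in UXS1 siRNA libraries and 84.0, 89.9 and 75.5 CPM in MRPL42 siRNA libraries, against 77.6, 77.9 and 95.8 CPM in control libraries. The groups overlapped, with control c close to the highest UXS1 siRNA library. The log2 fold change was 0.097 ± 0.10 (SE, edgeR adjusted p = 0.645) under UXS1 siRNA and −0.012 ± 0.10 (adjusted p = 0.955) under MRPL42 siRNA. Without control c both were above 0, at 0.19 (adjusted p = 0.252) and 0.088 (adjusted p = 0.602), and neither passed.

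DHCR7 is the reductase that removes the second ring double bond, and where it is the last step its product is cholesterol (ENSG00000172893; chr11:71428193-71452868, minus strand). DHCR7 had 249, 258 and 254 CPM in UXS1 siRNA libraries and 255, 262 and 271 CPM in MRPL42 siRNA libraries, against 207, 201 and 156 CPM in control libraries. As for LSS, control c was the lowest library, and the groups did not overlap with or without it. DHCR7 had a log2 fold change of 0.43 ± 0.099 (SE, edgeR adjusted p = 0.171) under UXS1 siRNA and 0.48 ± 0.099 (adjusted p = 0.135) under MRPL42 siRNA. Without control c the values were smaller, 0.30 ± 0.053 (adjusted p = 0.0200) and 0.36 ± 0.054 (adjusted p = 0.0122), and both passed the threshold. The common biological coefficient of variation over all genes was 0.130 with all libraries and 0.0753 without control c.

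**Figure D2:**
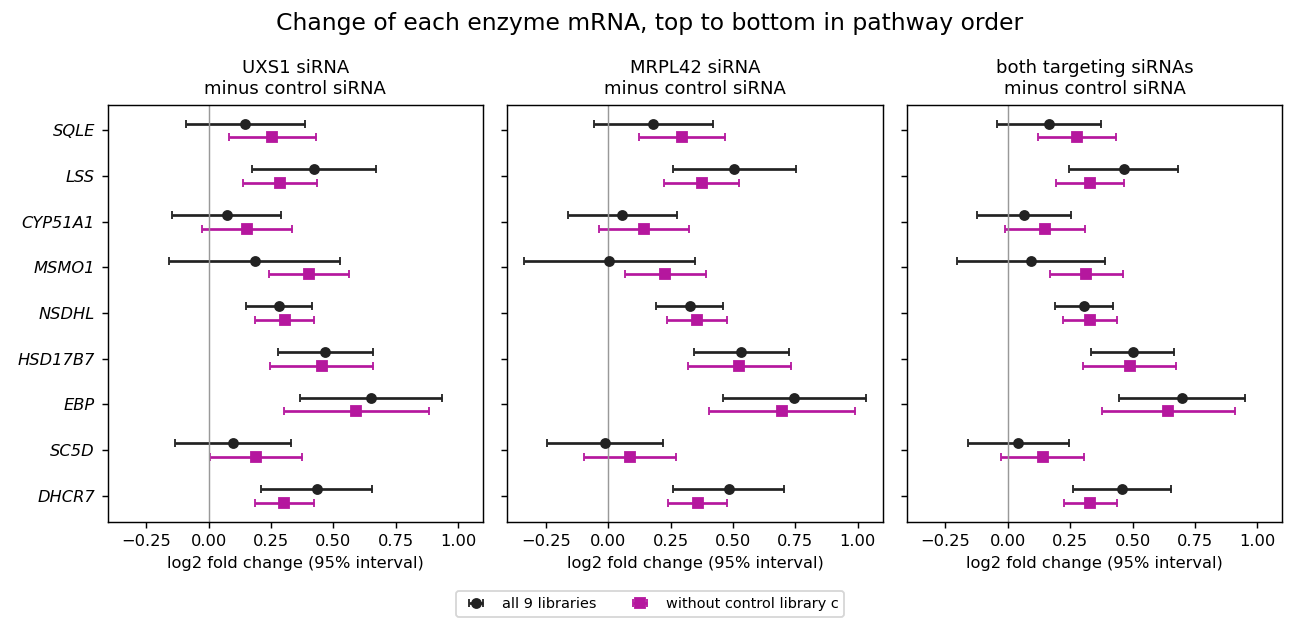
Log2 fold change with its 95% interval for each enzyme, from top to bottom in pathway order, in the 3 comparisons with the control, with all 9 libraries (circles) and without control library c (squares). EBP lies farthest right in each panel (0.65, 0.75 and 0.70 with all libraries), the intervals of LSS, NSDHL, HSD17B7, EBP and DHCR7 stay above 0 in both fits, and MSMO1 moves most when control c is left out.

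Control library c pulled the arm in both directions at once. Set against the mean of controls a and b, it was lower by a log2 difference of −0.41 for LSS, −0.39 for DHCR7 and −0.14 for EBP. It was higher by 0.61 for MSMO1, 0.34 for SQLE, 0.30 for SC5D, 0.26 for CYP51A1 and 0.11 for NSDHL, and it lay between them for HSD17B7. For 7 of the 9 enzymes all 6 targeting libraries lay above controls a and b, and for CYP51A1 and SC5D 5 of the 6 did. The share of all tested genes that lay above controls a and b in this way was not counted, so the 7 cannot be weighed against it. The 4 enzymes that overlapped with the controls were thus enzymes in which control c was the highest control.

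**Figure D3:**
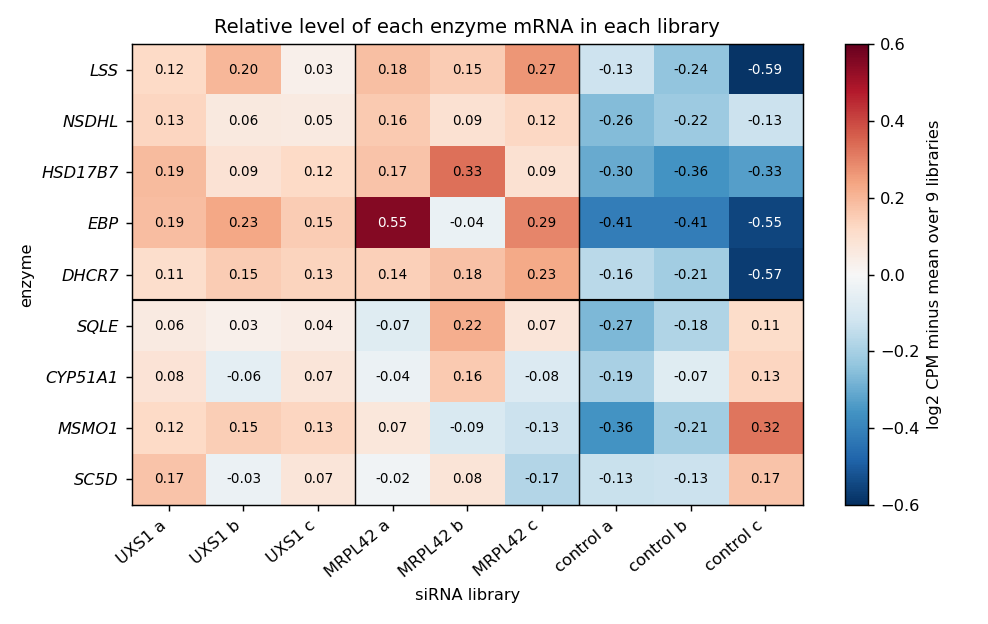
Log2 CPM of each enzyme in each library minus its mean over the 9 libraries, with UXS1 siRNA, MRPL42 siRNA and control siRNA libraries from left to right; the line separates the 5 enzymes whose groups did not overlap (above) from the 4 whose groups did. Control c is the palest or reddest control in the lower block (0.32 for MSMO1) and the deepest blue for LSS, EBP and DHCR7 (−0.59, −0.55 and −0.57).

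No enzyme passed the test between the 2 targeting siRNAs. UXS1 siRNA minus MRPL42 siRNA gave log2 fold changes between −0.10 and 0.18, with an edgeR adjusted p of 1.00 for all 9, and 0 of 9 at an unadjusted p below 0.05. Over all genes 0% were called in this comparison by edgeR, with or without control c, 0% by DESeq2 and 0% by limma-voom. With all libraries 218 genes, 1.72% of those tested, had an unadjusted edgeR p below 0.05. MSMO1 was the only enzyme with all UXS1 siRNA libraries, at 228 to 233 CPM, above all MRPL42 siRNA libraries, at 192 to 221 CPM. Its log2 fold change between them was 0.18, with a 95% interval from −0.16 to 0.52. In the fit without control c, which has a smaller spread, it was 0.17 with an interval from 0.030 to 0.32 (edgeR adjusted p = 0.868). MSMO1 was then the only enzyme at an unadjusted p below 0.05, which 5.35% of all genes reached in that fit. With all libraries, the interval for EBP ran from −0.38 to 0.19 and for NSDHL from −0.18 to 0.088, so differences inside these bounds could not be told from the spread.

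Levels of different enzymes were compared as CPM per kilobase of the annotated principal transcript, which sets genes of unequal length on a common scale and depends on the transcript annotated. In UXS1 siRNA libraries EBP was highest, at 128.6 ± 3.57 CPM per kilobase (SD, n = 3), and made up 19.9% of the arm's summed level. MSMO1 followed at 101 ± 1.12 CPM per kilobase, then DHCR7 at 96.4 ± 1.58, SQLE at 91.6 ± 0.827, CYP51A1 at 76.1 ± 4.10, NSDHL at 62.7 ± 1.88, SC5D at 38.0 ± 2.72, LSS at 34.9 ± 2.04 and HSD17B7 at 16.6 ± 0.618. In that order SC5D and LSS were the only neighbours with overlapping libraries. MRPL42 siRNA libraries had EBP at 137.5 ± 27.8 CPM per kilobase, 21.1% of the arm, DHCR7 at 99.8 ± 2.96, SQLE at 93.7 ± 9.40 and MSMO1 at 89.6 ± 6.65, and HSD17B7 was again lowest at 17.4 ± 1.49. Overlapping neighbours there were DHCR7 and SQLE, SQLE and MSMO1, and LSS and SC5D.

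In control libraries the upper part of the order was not resolved. MSMO1 stood at 89.3 ± 23.2 CPM per kilobase (SD, n = 3), SQLE at 82.7 ± 11.8, EBP at 81.9 ± 4.42, CYP51A1 at 72.3 ± 8.34 and DHCR7 at 71.4 ± 10.6, and each of these overlapped with the next. Below them NSDHL at 51.6 ± 2.39, SC5D at 35.6 ± 4.42, LSS at 26.0 ± 4.18 and HSD17B7 at 12.0 ± 0.224 CPM per kilobase stood apart from one another. HSD17B7 thus held the bottom of the order in all 3 groups, while EBP, at 15.7% of the arm in the control, had the highest mean with either targeting siRNA. In controls a and b EBP was also the highest of the 9, at 84.5 CPM per kilobase in each, and in control c, with EBP at 76.8, it stood below MSMO1 at 116, SQLE at 96.1 and CYP51A1 at 81.4.

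**Figure D4:**
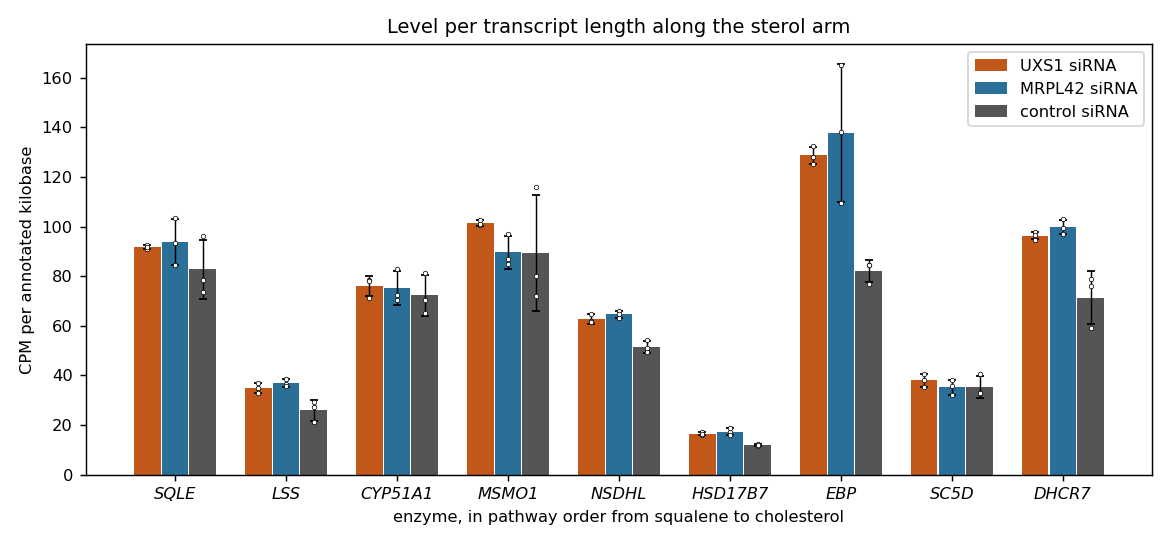
CPM per annotated kilobase of each enzyme in pathway order, as mean (bar from 0), SD (error bar) and single libraries (points) for UXS1 siRNA, MRPL42 siRNA and control siRNA. HSD17B7 is the lowest bar in every group, and EBP shows the widest gap between the targeting siRNAs (128.6 and 137.5) and the control (81.9).

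To find genes with a like pattern, each enzyme's log2 CPM was standardised over the 9 libraries and the 9 profiles were averaged. Over these 9 libraries, which share the split into targeting and control siRNAs, the 5 other tested genes with the highest Pearson's r to this mean were METTL3 (0.968), DIABLO (0.961), HMGCS1 (0.958), CCHCR1 (0.946) and CA12 (0.934). HMGCS1, which makes HMG-CoA in the mevalonate arm, was the only one of the 5 from cholesterol synthesis. It had 170, 149 and 167 CPM in UXS1 siRNA libraries and 156, 171 and 145 CPM in MRPL42 siRNA libraries, against 122, 127 and 138 CPM in control libraries. It did not overlap with the controls, and like the mean of the arm it was highest among the controls in library c.

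The early arm also lay mostly above the control. Of the 10 mevalonate arm genes, all 10 were tested, 0 were called in either direction by edgeR in any of the 3 comparisons with the control, and 7 lay above all controls under each siRNA, beside 15.3% of all tested genes under UXS1 siRNA and 11.0% under MRPL42 siRNA. Their median log2 fold change was 0.40 under UXS1 siRNA and 0.38 under MRPL42 siRNA, and 0.33 and 0.34 without control c. FDFT1, squalene synthase, which feeds the late arm, had 531, 509 and 518 CPM in UXS1 siRNA libraries and 553, 465 and 508 CPM in MRPL42 siRNA libraries, against 366, 383 and 283 CPM in control libraries. None of its targeting libraries overlapped with a control, and its log2 fold change was 0.59 ± 0.11 (SE, edgeR adjusted p = 0.137) under UXS1 siRNA and 0.57 ± 0.11 (adjusted p = 0.135) under MRPL42 siRNA. Without control c it was 0.46 (adjusted p = 0.0110) and 0.44 (adjusted p = 0.0199), and passed in both. MVD, which decarboxylates mevalonate diphosphate, had 0.50 ± 0.099 (adjusted p = 0.152) and 0.55 ± 0.099 (adjusted p = 0.132), and without control c 0.42 (adjusted p = 0.0617) and 0.48 (adjusted p = 0.0412). Without control c, 2 of the 10 rose under UXS1 siRNA, IDI1 and FDFT1, where 1.58% of all genes were called. In that fit 5 rose under MRPL42 siRNA, against 1.33%, and 6 in the average of both, against 2.79%.

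The other genes that act after squalene had medians closer to 0. All 7 were tested and 0 were called by edgeR in any comparison with the control, with medians of 0.080 under UXS1 siRNA and 0.071 under MRPL42 siRNA, and −0.018 and 0.027 without control c. ERG28, a scaffold of the demethylation enzymes, had 0.43 ± 0.095 (SE, edgeR adjusted p = 0.171) and 0.36 ± 0.095 (adjusted p = 0.137), and without control c 0.39 (adjusted p = 0.0946) and 0.33 (adjusted p = 0.122). TM7SF2, a sterol reductase between CYP51A1 and MSMO1, had 0.41 ± 0.14 (adjusted p = 0.203) and 0.46 ± 0.14 (adjusted p = 0.141), and without control c 0.30 (adjusted p = 0.225) and 0.36 (adjusted p = 0.141).

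Of the 13 sterol sensing and supply genes 12 were tested, all but ABCG1, and 0 were called by edgeR with all libraries. INSIG1, which retains the sterol sensor in the endoplasmic reticulum and is itself a sterol-regulated gene, had 182, 180 and 174 CPM in UXS1 siRNA libraries and 182, 168 and 164 CPM in MRPL42 siRNA libraries, against 127, 129.9 and 99.6 CPM in control libraries. Its groups did not overlap, and the log2 fold change was 0.59 ± 0.099 (SE, edgeR adjusted p = 0.107) and 0.53 ± 0.099 (adjusted p = 0.132). Without control c INSIG1 passed under UXS1 siRNA (0.46, adjusted p = 0.00542) and under MRPL42 siRNA (0.41, adjusted p = 0.0131). NPC2, a carrier of cholesterol in the lysosome, had 0.44 ± 0.11 (adjusted p = 0.174) and 0.43 ± 0.12 (adjusted p = 0.137), and without control c 0.44 (adjusted p = 0.110) and 0.43 (adjusted p = 0.105). The median over the 12 was 0.16 under UXS1 siRNA and 0.17 under MRPL42 siRNA, and −0.0045 and 0.055 without control c.

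Among the 9 genes of SREBP1 and fatty acid synthesis, all tested, the medians were 0.34 under UXS1 siRNA and 0.38 under MRPL42 siRNA, and 0.14 in each without control c. ACSS2, which makes acetyl-CoA from acetate, was with all 9 libraries the only gene of the 4 lists that rose in the average of both targeting siRNAs, by a log2 fold change of 0.49 ± 0.074 (SE, edgeR adjusted p = 0.0477). It had 80.1, 77.0 and 77.4 CPM in UXS1 siRNA libraries and 80.6, 76.2 and 73.7 CPM in MRPL42 siRNA libraries, against 58.9, 58.5 and 48.3 CPM in control libraries. The groups did not overlap. Without control c, 6 genes of the mevalonate arm, 2 of sterol sensing and supply and 2 of this list, ACSS2 (0.39, adjusted p = 0.00482) and FADS2, rose in the average of both. FADS2, a fatty acid desaturase, had 369, 393 and 369 CPM in UXS1 siRNA libraries and 383, 369 and 380 CPM in MRPL42 siRNA libraries, against 288, 284 and 97.7 CPM in control libraries. Control c was far below the other controls, and the groups did not overlap with or without it. With all libraries FADS2 had a log2 fold change of 0.76 ± 0.32 under each siRNA (SE, edgeR adjusted p = 0.263 for UXS1 siRNA and 0.231 for MRPL42 siRNA). Without control c it rose by a smaller 0.39 ± 0.055 under each (adjusted p = 0.00758 for UXS1 siRNA and 0.00879 for MRPL42 siRNA). FADS1, another desaturase, had 0.42 ± 0.17 (adjusted p = 0.252) under UXS1 siRNA, and 0.19 ± 0.054 (adjusted p = 0.110) without control c. These lists describe the neighbourhood of the sterol arm, and no test compared them with it.

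**Figure D5:**
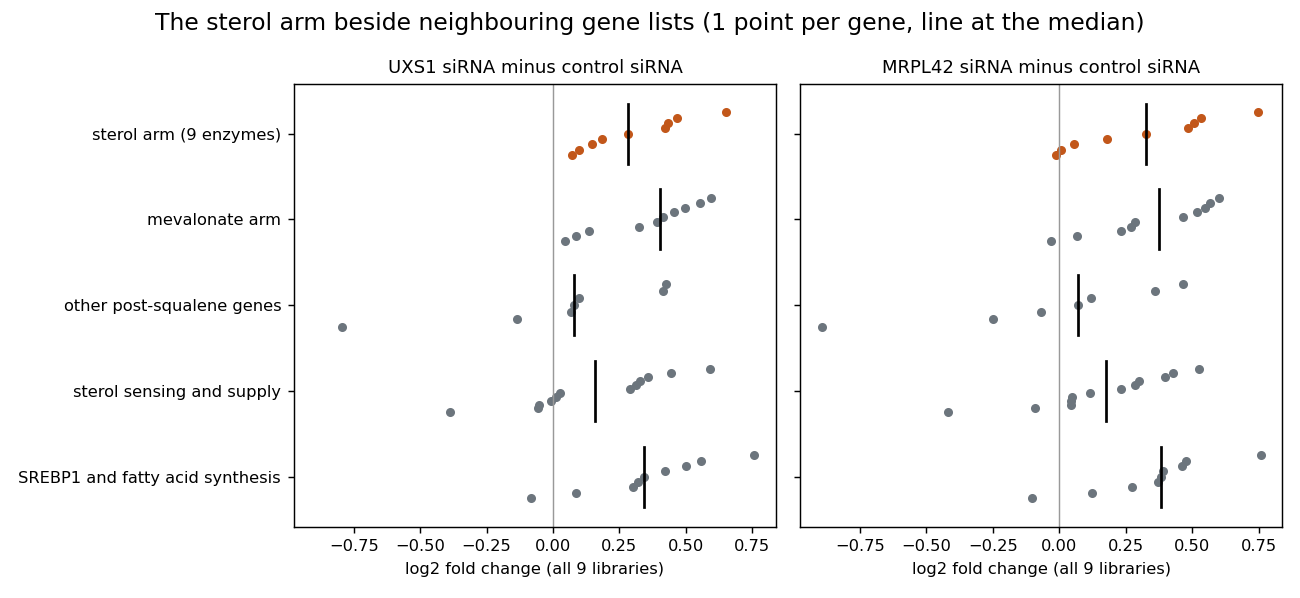
Log2 fold change of every tested gene (points) with the list median (line) for the 9 enzymes of the sterol arm and for 4 neighbouring lists, for UXS1 siRNA minus control siRNA and MRPL42 siRNA minus control siRNA, with all 9 libraries. The medians of the sterol arm (0.28 and 0.33) lie below those of the mevalonate arm (0.40 and 0.38), an order that turned under MRPL42 siRNA without control c (0.36 and 0.34), and above those of the other genes after squalene (0.080 and 0.071).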

How the data were processed

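Poly(A) RNA of HCCLM3 cells was measured in 9 libraries, 3 per siRNA group. The build was hg38 and the tools named are edgeR, HISAT2, Bowtie2 and fastp, per the submitters' processing notes. What each tool did, its version, the annotation and the strand setting were not given in the sources used here. Values used are the authors' estimated counts, 1 per gene and library, from 1 deposited table. Another 9 columns, of TPM, were not used, so levels between genes are CPM per annotated kilobase and not TPM as the design had planned. Columns were put into groups by name: the UXS1 siRNA columns carry that name with 2 letters exchanged, and the letters a, b and c are tied to no repeat number.

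Estimated counts were rounded, filtered with filterByExpr, scaled by TMM and fitted with edgeR 4.0.16 in R 4.3.3, with 1 mean per group over all 9 libraries. The quasi-likelihood test was two-sided, with Benjamini-Hochberg adjustment over the 12657 genes tested and a threshold of 0.05. The design had been written for raw counts. DESeq2 1.42.0, limma-voom (limma 3.58.1), DESeq2 size factors, no filter, the compared groups only, library letter as a block, length offsets (lowess span of 0.3) and each library left out were alternatives. The test was also checked on simulated counts. Library totals were 15265959 to 22400560, PCR reads are not independent molecules, and every pair of libraries within a group differed by more than counting noise, with a mean chi-square per gene of at least 3.37.

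The members and lists were chosen with earlier results of these data known. Named genes were the members, both targets, per list up to 3 called genes or else the 2 with the smallest p, and the 5 genes most like the members' mean profile; a few genes of the lists are not reported here. Coordinates come from GENCODE 29 on GRCh38, in which 20128 of 20379 identifiers were found, and promoters from RefSeq on GRCh38.p14.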

Additional observations from a re-analysis of the deposited data

How the results depend on the processing

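The direction of LSS, NSDHL, HSD17B7, EBP and DHCR7 against the control held under every alternative run, and the number of calls did not. These 5 are the enzymes whose targeting libraries all lay above all controls. Leaving out 1 library could therefore hardly turn their direction, and that part is no separate check. DESeq2 called 5 enzymes under UXS1 siRNA, 5 under MRPL42 siRNA and 5 for both together, and a fit of only the compared groups called 2 under UXS1 siRNA. For both together, DESeq2 size factors, limma-voom and the library letter as replicate block called 0, and no filter on low counts called 2. Same-lettered libraries showed little shared deviation from their group means (r from −0.27 to 0.13), and the labels tie the letters to no repeat. With 3 libraries per group, and control c far from controls a and b, these r cannot show that no pairing exists. Leaving out 1 library gave 0 to 4 calls under UXS1 siRNA, 0 to 5 under MRPL42 siRNA and 0 to 6 for both together. Without MRPL42 siRNA library b the counts were 3, 5 and 5. Without control library c they were 4, 5 and 6, beside 1.58%, 1.33% and 2.79% of all genes called. Calls over all genes also depended on the setting, moving in 30 of the alternative results and staying alike in 33. Apart from DESeq2, limma-voom and the fit without control c, shares over all genes are not given here. The counts of enzymes in those fits therefore cannot be weighed against them. The median over the enzymes was 0.198, 0.237 and 0.217 with length offsets. A limma fit on log2(TPM + 1) was not run, since the TPM columns were not used. Between the targeting siRNAs it ran from −0.052 to 0.0022 with 1 library left out, turning only without MRPL42 siRNA library b.

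Directions turned for enzymes with changes near 0. With length offsets MSMO1 was −0.026 under MRPL42 siRNA. With 1 library left out, CYP51A1 ran from −0.018 to 0.14 under MRPL42 siRNA and from −0.0068 to 0.15 for both. MSMO1 ran from −0.13 to 0.23 and from −0.038 to 0.32, and SC5D from −0.072 to 0.088 and from −0.0098 to 0.14. Between the targeting siRNAs CYP51A1 ran from −0.041 to 0.091, EBP from −0.24 to 0.048, SQLE from −0.11 to 0.042 and HSD17B7 from −0.13 to 0.0022. The cause of these turns was not tested. HSD17B7 had the fewest counts of the 9 enzymes, 258 to 428 per library.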
